A study of Mus musculus with 29 samples.

Results

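A set of 10 autophagy genes was followed through the livers of fasted and refed obese mice. They are Gabarapl1, Map1lc3b, Sqstm1, Ulk1, Bnip3, Tfeb, Atg14, Wipi1, Becn1 and Lamp2, and they were found by matching the Ensembl identifiers of the count table to these 10 symbols, 10 of 54532 identifiers. All 10 passed the filter on low counts, as did 15603 genes in all. The 29 libraries are poly-A RNA from liver of male mice, in 4 groups. There are 8 refed and 7 fasted livers with Prox1 K556R, an allele of the hepatocyte transcription factor Prox1 that cannot take up SUMO at that lysine, and 6 refed and 8 fasted wild-type (WT) livers. K556R is a conditional knock-in limited to hepatocytes, switched on by Cre recombination at 8 weeks of age, and the labels name the WT libraries as controls without saying whether those mice received Cre. All mice then ate a diet with 45% fat and 20% fructose for 18 weeks, and livers were collected at ZT 15 to 17. The libraries belong to 2 batches as labelled, each holding all 4 groups with 3 or 4 livers each. Nothing beyond the labels states that the libraries come from separate animals, so p-values cover only library-to-library spread, which may be technical.

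Autophagy carries parts of the cytoplasm into the lysosome for breakdown, and in liver it supplies amino acids, glucose precursors and fatty acids during a fast. Fasting lowers insulin and mTORC1 activity, which frees the ULK1 kinase and lets FOXO and TFEB family transcription factors enter the nucleus. ULK1 activates a lipid kinase complex built around Beclin 1, WIPI proteins read the lipid that it makes, and proteins of the ATG8 family are attached to the growing membrane, where receptors bring in the cargo.

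Libraries held 14385218 to 27278251 counts, and the 10 genes took 0.176% of them. Depth gave 159 counts or more per library for every one of the 10 genes. Of 10 genes of insulin and fasting metabolism, 9 differed between feeding states, beside 25.6% of all tested genes. Pck1, which makes glucose precursors, fell by 1.59 on the log2 scale in refed livers (SE 0.14, adjusted p = 1.63e-09, edgeR quasi-likelihood test), and Fasn, the fatty acid synthase, rose by 2.61 (SE 0.23, adjusted p = 1.25e-09, edgeR). G6pc, which like Pck1 serves glucose production, did not pass, at 0.26 (SE 0.13, adjusted p = 0.161, edgeR). Whole-gene Prox1 averaged 150 CPM in refed K556R livers (SD 25.5, n = 8) against 164 CPM in refed WT livers (SD 22.7, n = 6). Fasted means were 186 CPM in K556R and 174 CPM in WT. As a mean of both genotypes Prox1 fell by 0.20 on the log2 scale on refeeding (SE 0.06, adjusted p = 0.018, edgeR). In K556R it fell by 0.31 (SE 0.09, adjusted p = 0.0119, edgeR). In WT it did not pass, at -0.09 (SE 0.09, adjusted p = 0.634, edgeR). The difference of these effects between genotypes did not pass, at -0.23 (SE 0.13). Batch 1 alone gave a mean of -0.11, which did not pass. A count over the whole gene cannot see the K556R codon, so it does not check the genotype. The 8 hepatocyte markers summed to 63290 CPM or more in every library, and the 4 fat cell markers to between 8.55 and 32.2 CPM. Of these 4, Lep was at 0 in all 29 libraries, Adipoq in 23 and Plin1 in 16, while Fabp4 was detected in every one. Genes on the opposite strand share exon bases with several of the 10, and the sources used here give no strand setting for the counting. Cntd1 shares 43.9% of the exon bases of Becn1 and held 112 counts over all libraries, against 28866 for Becn1. For Gabarapl1 the share was 28.3% and the partner 1700101I11Rik held 81 counts, against 156808. For Bnip3 it was 22.25% and Gm45507 held 0 counts, against 129814. For Sqstm1 it was 17.3% and Mrnip held 1286 counts, against 223389. These partner counts do not show how many reads from shared exon bases went uncounted, which could lower the levels given here. Bulk RNA does not separate fewer cells of a type from less RNA per cell.

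The 10 genes were chosen by earlier results of these data, and which contrasts were used is not recorded, so feeding and genotype differences of the 10 are given as measured values with standard errors and without p-values. Where a count of the 10 past the threshold is given, nothing is read from it. Levels are in CPM, each gene's count as a share of its library after TMM scaling, and differences are log2 fold changes from a model with a batch term.

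The genes differed widely in level. Per kilobase of exon, Gabarapl1 was highest at 132 CPM per kb over all 29 libraries, followed by Sqstm1 at 112, Bnip3 at 96.6 and Lamp2 at 60.2 CPM per kb. Map1lc3b came next at 19.0 CPM per kb, then Ulk1 at 13.7 and Becn1 at 6.92 CPM per kb. Wipi1 and Atg14 stood side by side at 4.29 and 4.26 CPM per kb, closer than their spread, and Tfeb was lowest at 1.96 CPM per kb. Exon length here counts every base annotated as exon in any transcript, from 2013 for Gabarapl1 to 9552 for Lamp2. It can exceed the length of the mRNA present, so this order depends on the annotation too. Without division by length Lamp2 was highest at 575 CPM, then Sqstm1 at 375 and Gabarapl1 at 265 CPM. Becn1 was the steadiest of the 10: its highest library exceeded its lowest by 1.29-fold, and only 0.737% of tested genes had a smaller residual spread. Wipi1 had the widest span, 2.92-fold.

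**Figure D1:**
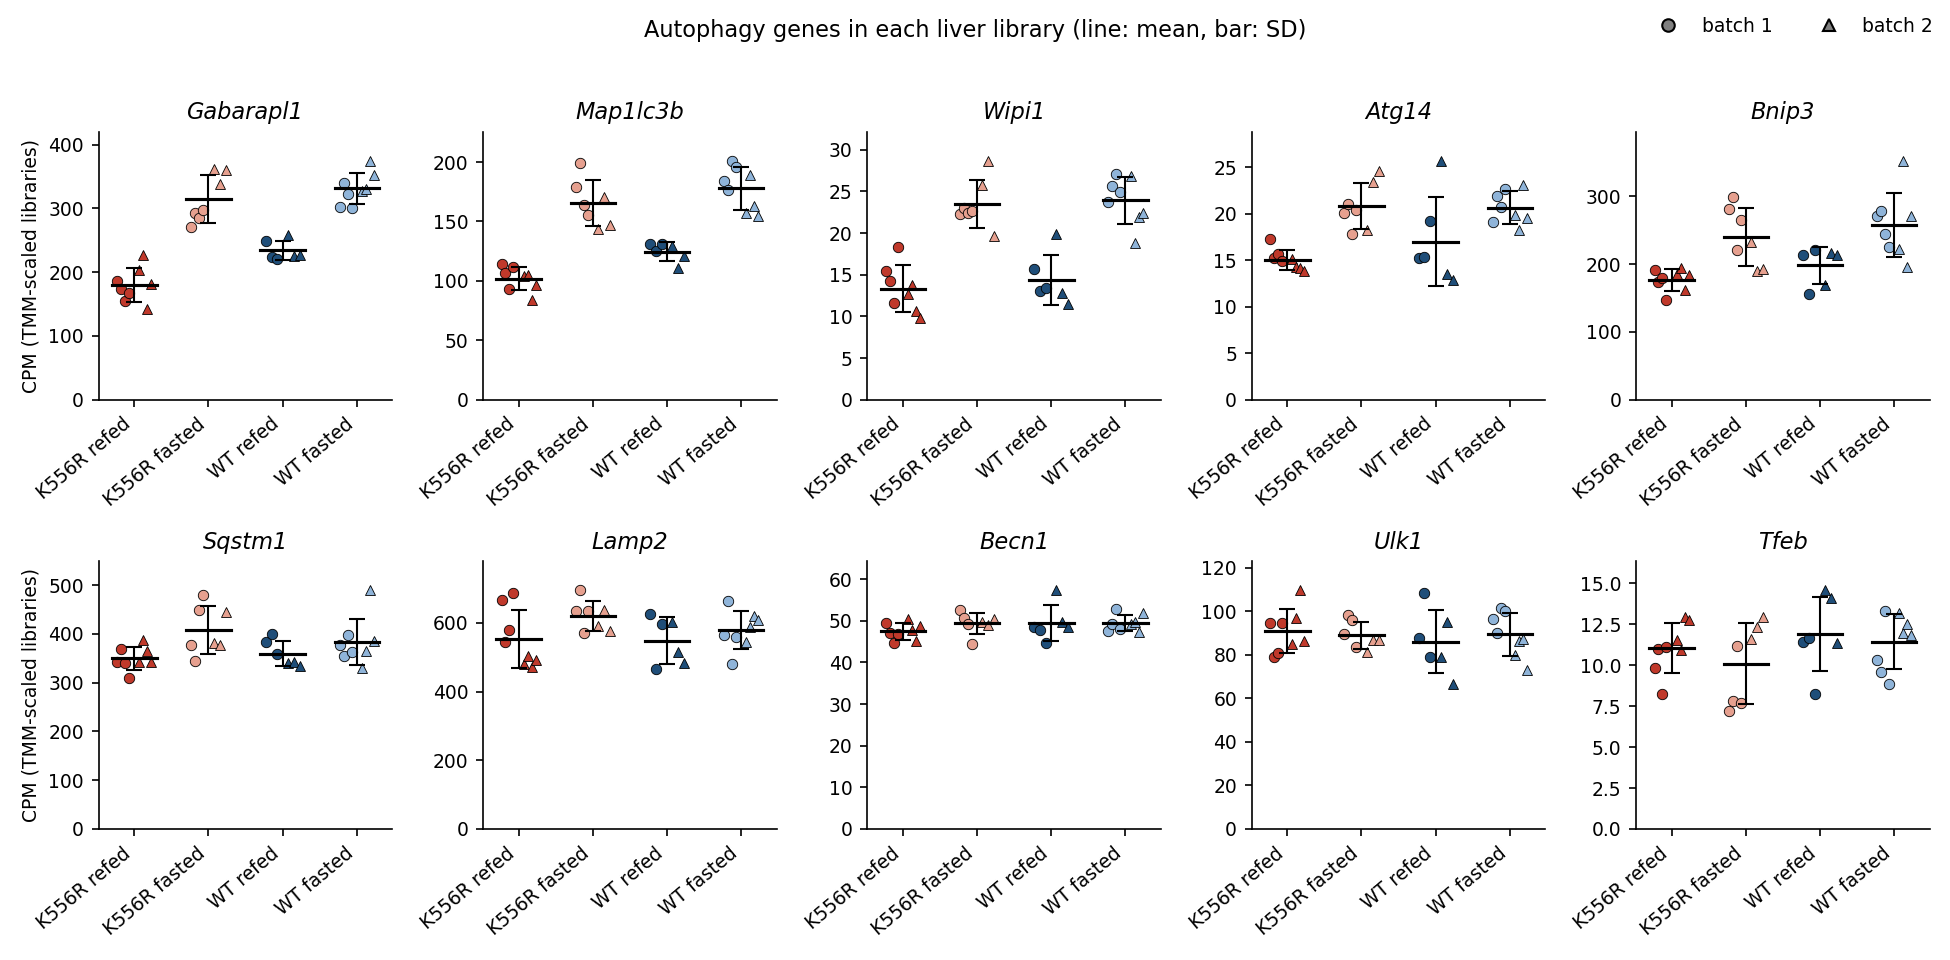
CPM of each of the 10 autophagy genes in every liver library (points: circles batch 1, triangles batch 2), by group on the x axis, with the group mean (line) and SD (bar); each y axis starts at 0. Gabarapl1 lies between 142 and 227 CPM in refed K556R livers and between 300.1 and 375 CPM in fasted WT livers, while Becn1 stays between 44.5 and 57.4 CPM in all 29 libraries.

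Refed livers held less mRNA of the ATG8 proteins GABARAPL1 and LC3B, of the phosphoinositide reader WIPI1, of the lipid kinase adaptor ATG14 and of the mitophagy receptor BNIP3 than fasted livers, in both genotypes. Sqstm1 and Lamp2 differed less, and Becn1, Ulk1 and Tfeb moved by less than 0.1 on the log2 scale as a mean of both genotypes. In that mean, 9 of the 10 values were below 0, with a median of -0.27 on the log2 scale, against a median of 0.01 over all tested genes, of which 48.8% were below 0. The whole-table test called 6 of the 10 lower (Wipi1, Gabarapl1, Map1lc3b, Bnip3, Atg14 and Sqstm1), beside 12.8% of all tested genes; within K556R it called the same 6, beside 8.39%, and within WT Gabarapl1, Map1lc3b, Bnip3 and Wipi1, beside 5.43%. Without a filter on low counts 5 were called in the mean, and a replicate block gave 5, with 5 in K556R and 3 in WT. In WT, batch 1 alone called 3 and batch 2 alone 2.

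Cell type markers were read in the same contrast, as a mean of both genotypes. All 12 macrophage markers were below 0, with a median of -0.22 on the log2 scale, none past the threshold. They summed to 367 to 634 CPM in refed K556R livers against 259 to 776 CPM in fasted K556R livers, and to 297 to 519 CPM in refed WT livers against 264 to 969 CPM in fasted WT livers. Of 8 hepatocyte markers 3 fell by edgeR: Tat, a tyrosine catabolic enzyme, by 0.83 (SE 0.19), Cyp2e1, a cytochrome P450, by 0.37 (SE 0.09) and Hnf4a, a hepatocyte transcription factor, by 0.23 (SE 0.05). In all, 6 of the 8 were below 0, while Alb at 0.15 (SE 0.08) and Ttr at 0.10 (SE 0.05) were above 0 and did not pass. The 8 summed to a median of 84150 CPM in refed against 80382 CPM in fasted K556R livers. In WT the medians were 87420 CPM refed and 86443 CPM fasted. Of 8 stellate cell markers 1 passed, Lrat, which rose by 0.36 (SE 0.12). The part of these in the values of the 10 genes was not tested.

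The ATG8 proteins coat the autophagosome membrane and bind cargo receptors. Gabarapl1 (ENSMUSG00000030161, mm10 chromosome 6, 129533160 to 129542346, plus strand) had a lowest, median and highest value of 142, 178 and 227 CPM in refed K556R livers, against 271, 298 and 362 CPM in fasted K556R livers. In WT it had 221, 226 and 258 CPM refed, against 300.1, 329 and 375 CPM fasted. No refed liver reached the lowest fasted liver of its genotype, in either batch. The difference was log2 -0.82 in K556R (SE 0.07) and -0.50 in WT (SE 0.08). Batch 1 alone gave -0.74 in K556R and -0.44 in WT, and batch 2 alone -0.93 and -0.56.

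Map1lc3b (ENSMUSG00000031812, chromosome 8, 121590361 to 121598760, plus strand) encodes LC3B, the ATG8 protein used most as an autophagosome marker. It had a lowest, median and highest value of 84.3, 105 and 114 CPM in refed K556R livers, against 144, 164 and 199 CPM in fasted K556R livers. In WT the values were 111, 127 and 131 CPM refed, against 154, 181 and 201 CPM fasted. Here too refed and fasted livers were separate in each genotype and each batch. The difference was log2 -0.69 in K556R (SE 0.06) and -0.51 in WT (SE 0.07), and it was close between batches, at -0.71 and -0.67 in K556R and at -0.54 and -0.47 in WT. Refed livers lay below fasted livers without overlap in both batches for 3.13% of all tested genes in K556R and 2.26% in WT.

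Wipi1 (ENSMUSG00000041895, chromosome 11, 109573331 to 109611967, minus strand) encodes a protein that binds phosphatidylinositol 3-phosphate on the forming membrane, and it had the widest difference of the 10. Refed K556R livers held 9.81 to 18.4 CPM with a median of 13.2, against 19.6 to 28.7 CPM with a median of 22.7 in fasted K556R livers. Refed WT livers held 11.5 to 19.9 CPM with a median of 13.2, against 18.8 to 27.1 CPM with a median of 24.3 in fasted WT livers. In K556R the states did not overlap, while in WT 1 refed liver of batch 2 lay above 1 fasted liver of that batch. The mean of both genotypes was 0.584-fold, a log2 difference of -0.78 (SE 0.08), with -0.82 in K556R (SE 0.12) and -0.74 in WT (SE 0.12). Within K556R, batch 2 alone gave -1.10 and batch 1 alone -0.58, so the size was less even than that of Map1lc3b.

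Atg14 and Becn1 are both subunits of the autophagy lipid kinase complex, and they did not move alike. Atg14 (ENSMUSG00000037526, chromosome 14, 47540893 to 47570649, minus strand), the subunit that sends the complex to autophagosome sites, ranged from 13.9 to 17.3 CPM in refed K556R livers, against 17.8 to 24.6 CPM in fasted K556R livers. In WT it ranged from 12.9 to 25.7 CPM refed, against 18.2 to 23.1 CPM fasted. The K556R states did not overlap, but the highest Atg14 value of all 29 libraries came from a refed WT liver, replicate 1 of batch 2. The log2 difference was -0.46 in K556R (SE 0.11) and -0.28 in WT (SE 0.11), and without that library the WT value was -0.44 (SE 0.09), which passed the whole-table threshold that the value with it did not. Among refed WT livers that library was highest in Wipi1 and Becn1 too, at 19.9 and 57.4 CPM. Its Pck1 level of 1097 CPM lay below the lowest fasted WT liver, at 1582 CPM. Its Fasn level of 966 CPM was the lowest of the refed WT livers but lay above the highest fasted WT liver, at 801 CPM. In Pck1 and Fasn it thus stood on the refed side.

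Becn1 (ENSMUSG00000035086, chromosome 11, 101285952 to 101302286, minus strand), which encodes the Beclin 1 scaffold, averaged 47.5 CPM in refed K556R livers (SD 2.00, n = 8) against 49.4 CPM in fasted K556R livers (SD 2.48, n = 7). In WT it averaged 49.4 CPM refed (SD 4.26, n = 6) and 49.5 CPM fasted (SD 1.99, n = 8). Its log2 difference was -0.06 in K556R (SE 0.05) and -0.0029 in WT (SE 0.05), within the spread of the livers. Ulk1 (ENSMUSG00000029512, chromosome 5, 110784488 to 110810097, minus strand), the kinase that starts the process, averaged 90.9 CPM refed (SD 10.2) and 89.0 CPM fasted (SD 6.20) in K556R, and 85.9 CPM refed (SD 14.4) and 89.3 CPM fasted (SD 9.89) in WT. Its log2 difference was 0.04 in K556R (SE 0.08) and -0.06 in WT (SE 0.09), and refed and fasted livers overlapped.

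Bnip3 and Sqstm1 encode cargo receptors. Bnip3 (ENSMUSG00000078566, chromosome 7, 138890836 to 138909519, minus strand) sits on the outer mitochondrial membrane and binds ATG8 proteins. It ranged from 147 to 194 CPM with a median of 181 in refed K556R livers, against 190 to 299 CPM with a median of 232 in fasted K556R livers. WT livers ranged from 156 to 220 CPM with a median of 213 when refed, against 196 to 353 CPM with a median of 257 when fasted. The states were separate in batch 1 and overlapped in batch 2, in each genotype. The share of all tested genes separate in 1 batch alone was not computed, so nothing is read from such a separation, here or below. The difference was log2 -0.43 in K556R (SE 0.11), with -0.62 in batch 1 and -0.20 in batch 2, and -0.38 in WT (SE 0.12), with -0.36 and -0.39. The WT value no longer passed the whole-table threshold on leaving out any 1 of 6 libraries, within either batch alone or with a replicate block, and the K556R value did not pass in batch 2 alone.

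Sqstm1 (ENSMUSG00000015837, chromosome 11, 50199366 to 50210827, minus strand) encodes p62, which links ubiquitinated cargo to ATG8 proteins and is itself degraded with it. It averaged 349.6 CPM in refed K556R livers (SD 23.6, n = 8) against 408 CPM in fasted K556R livers (SD 50.1, n = 7). WT averages were 359.6 CPM refed (SD 26.4, n = 6) and 383 CPM fasted (SD 47.8, n = 8). Refed and fasted livers overlapped in both genotypes, with log2 differences of -0.22 in K556R (SE 0.08) and -0.09 in WT (SE 0.08). In batch 1 alone the WT value was 0.04, so the direction in WT rested on batch 2, at -0.22. The mean of both genotypes no longer passed that threshold on leaving out any 1 of 15 libraries, without a filter on low counts, within either batch alone or with a replicate block.

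Lamp2 (ENSMUSG00000016534, chromosome X, 38401357 to 38456454, minus strand), a protein of the lysosomal membrane, averaged 553 CPM in refed K556R livers (SD 83.8, n = 8) against 620.0 CPM in fasted K556R livers (SD 44.0, n = 7). In WT it averaged 548 CPM refed (SD 68.7, n = 6) and 579 CPM fasted (SD 55.0, n = 8). The K556R difference of log2 -0.16 (SE 0.08) came from batch 2, at -0.33, where the 4 refed livers lay between 471 and 503 CPM and the 3 fasted livers between 576 and 638 CPM; batch 1 alone gave -0.02. Tfeb (ENSMUSG00000023990, chromosome 17, 47737030 to 47792419, plus strand), the transcription factor that drives lysosomal and autophagy genes, averaged 11.04 CPM refed (SD 1.52) and 10.1 CPM fasted (SD 2.46) in K556R, and 11.9 CPM refed (SD 2.28) and 11.4 CPM fasted (SD 1.66) in WT. It was the gene whose mean over both genotypes was above 0, at log2 0.08 (SE 0.08), which is about its standard error.

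**Figure D2:**
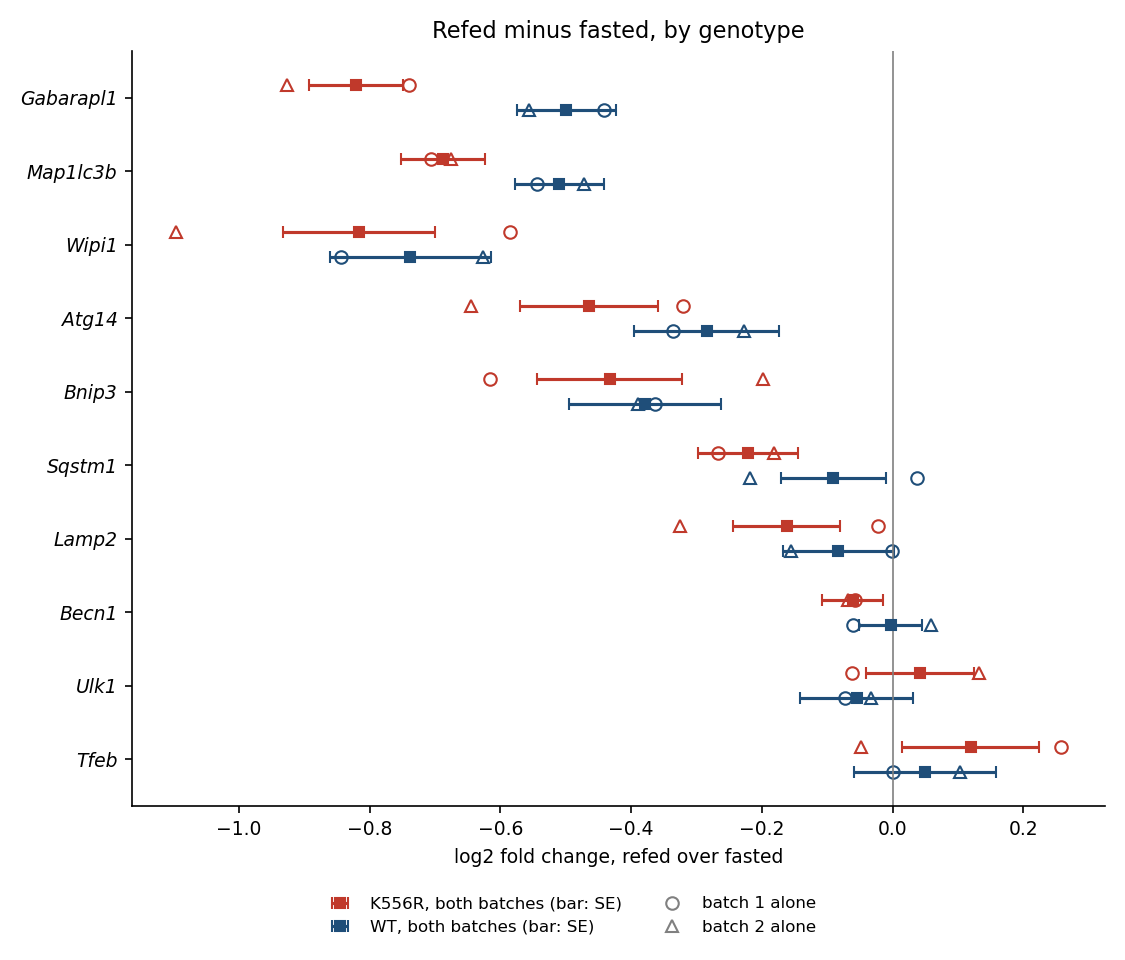
Refed minus fasted log2 fold change of each gene (x axis) in K556R (red) and WT (blue) livers, with squares for both batches together, bars for the standard error, and open circles and triangles for batch 1 and batch 2 alone. Gabarapl1 lies at -0.82 in K556R and -0.50 in WT, and the squares of Becn1, Ulk1 and Tfeb lie within 0.12 of 0.

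Because Gabarapl1 and Wipi1 had the widest refeeding differences, and Atg14 and Bnip3 held a motif match, their promoters are shown from RefSeq (GRCm38.p6), from 250 bases before to 50 bases after the annotated start. Promoters were listed there for 9 of the 10 genes, 11 in all since Tfeb has several starts; Becn1 had none listed. The windows are chr6:129532942-129533241 on the plus strand for Gabarapl1, and chr11:109611340-109611639, chr14:47568385-47568684 and chr7:138909457-138909756 on the minus strand for Wipi1, Atg14 and Bnip3. Capitals mark motif matches.
Gabarapl1: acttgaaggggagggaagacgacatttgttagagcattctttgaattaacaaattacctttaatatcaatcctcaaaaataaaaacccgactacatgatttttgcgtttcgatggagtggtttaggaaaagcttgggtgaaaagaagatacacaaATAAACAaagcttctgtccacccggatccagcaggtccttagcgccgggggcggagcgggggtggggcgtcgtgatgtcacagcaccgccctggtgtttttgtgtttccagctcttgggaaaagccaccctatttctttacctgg
Wipi1: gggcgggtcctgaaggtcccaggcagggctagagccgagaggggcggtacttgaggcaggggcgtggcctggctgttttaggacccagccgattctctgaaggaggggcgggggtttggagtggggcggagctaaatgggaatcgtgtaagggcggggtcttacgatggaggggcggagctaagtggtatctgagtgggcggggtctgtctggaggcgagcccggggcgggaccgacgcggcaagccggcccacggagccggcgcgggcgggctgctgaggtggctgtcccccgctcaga
Atg14: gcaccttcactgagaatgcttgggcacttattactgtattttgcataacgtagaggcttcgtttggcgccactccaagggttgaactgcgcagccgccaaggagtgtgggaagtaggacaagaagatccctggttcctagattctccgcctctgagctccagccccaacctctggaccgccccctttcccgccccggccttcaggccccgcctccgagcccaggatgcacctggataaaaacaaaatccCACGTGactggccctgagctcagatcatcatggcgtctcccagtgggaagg
Bnip3: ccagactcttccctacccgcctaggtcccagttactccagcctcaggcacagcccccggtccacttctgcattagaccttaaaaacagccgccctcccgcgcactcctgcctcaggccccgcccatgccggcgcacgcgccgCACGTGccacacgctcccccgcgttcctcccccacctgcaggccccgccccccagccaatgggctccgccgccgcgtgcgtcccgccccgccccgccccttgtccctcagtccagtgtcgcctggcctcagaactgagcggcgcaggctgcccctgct
Both strands were searched for GTAAACA, a core bound by FOXO factors, for ATAAACA, a related core added after these sequences had been read, and for CACGTG, the palindromic E-box core bound by TFEB and other factors. GTAAACA was found in 0 of the 11 promoters, against 3.65% of all 32851 mouse promoters in the table. ATAAACA was found in 1, that of Gabarapl1, with its first base 95 bases before the start, against 4.6% of all promoters. CACGTG was found in 2, that of Bnip3, 108 bases before the start, and that of Atg14, at the base before the start, against 7.15% of all promoters. The Wipi1 window, from the gene with the widest refeeding difference, held none of the motifs searched, and matches outside these windows were not searched for.

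A list of 90 further autophagy genes, written from general knowledge with earlier results of these data known, was counted by role, and all 90 were tested. As a mean of both genotypes 39 of the 90 fell on refeeding and 3 rose (43.3% lower, against 12.8% of all tested genes lower and 12.9% higher), with a median log2 difference of -0.11 against 0.01 for all genes. By role, the share called lower ran from 9.09% of the conjugation genes and 19.0% of the lysosome and fusion genes to 76.9% of the receptors and 77.8% of the phosphoinositide effector and lipid transfer genes; differences between roles were not tested.

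The remaining ATG8 genes moved less than Gabarapl1 and Map1lc3b. Map1lc3a, which encodes LC3A, fell by 0.19 on the log2 scale (SE 0.06, adjusted p = 0.0167, edgeR), with -0.11 in batch 2 alone, where it did not pass. Gabarapl2 was at -0.09 (SE 0.04) and Gabarap at -0.03 (SE 0.03), neither past the threshold. Gabarap averaged 171 CPM in refed K556R livers (SD 9.19, n = 8) and 177 CPM in fasted K556R livers (SD 7.06, n = 7), and 182 CPM in refed WT livers (SD 9.20, n = 6) and 183 CPM in fasted WT livers (SD 9.72, n = 8).

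Of 4 other genes of the ULK complex, Atg13 and Rb1cc1 fell, by 0.32 each on the log2 scale, and these encode the binding partners of ULK1. Of 6 other genes of the lipid kinase complex, Pik3c3, the catalytic subunit, fell by 0.34, Pik3r4, its regulatory subunit, fell by 0.29, and Nrbf2 fell by 0.22. Ambra1, Uvrag and Rubcn did not pass, with values from -0.01 to 0.03. The kinase subunits lay nearer to Atg14, at -0.37, than to Becn1, at -0.03.

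Among 9 genes of phosphoinositide effectors, lipid transfer and Atg9, 7 fell and 1 rose. Wipi2, the paralogue of Wipi1, fell by 0.28 on the log2 scale (SE 0.03, adjusted p = 1.6e-07, edgeR), with 73.9 CPM in refed K556R livers against 91.8 CPM in fasted K556R livers, and 79.3 CPM in refed WT livers against 94.4 CPM in fasted WT livers. Tmem41b, which encodes a lipid scramblase of the endoplasmic reticulum, rose by 0.40 (SE 0.07, adjusted p = 6.21e-05, edgeR), with 24.9 CPM in refed K556R livers against 19.1 CPM in fasted K556R livers, and 24.7 CPM in refed WT livers against 18.7 CPM in fasted WT livers. Of 11 conjugation genes, Atg12 alone passed, falling by 0.20 (SE 0.05, adjusted p = 0.00288, edgeR).

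Of 13 other receptors 10 fell and 1 rose. Calcoco1, a receptor for endoplasmic reticulum and Golgi, had the smallest p of the 90 and fell by 0.78 on the log2 scale (SE 0.06, adjusted p = 8.53e-12, edgeR). It averaged 27.2 CPM in refed K556R livers against 47.8 CPM in fasted K556R livers, and 31.7 CPM in refed WT livers against 53.4 CPM in fasted WT livers. The lowest fasted liver held 40.5 CPM and the highest refed liver 35.5 CPM, so the states were fully separate. Retreg1, a receptor of the endoplasmic reticulum, fell by 1.05 (SE 0.17), with 25.6 to 38.8 CPM in refed K556R livers against 27.7 to 153 CPM in fasted K556R livers. In batch 2 alone it did not pass, at -0.44, with 0.02 in K556R and -0.90 in WT. Bnip3l, the paralogue of Bnip3, fell by 0.32 (SE 0.04). Stbd1, which binds glycogen, rose by 0.17 (SE 0.06, adjusted p = 0.0258, edgeR), a call lost without a filter on low counts and in batch 2 alone, where the value was 0.03.

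Of 21 other lysosome and fusion genes 4 fell, among them Ctsl by 0.15, Mcoln1 by 0.15 and Lamp1 by 0.13 on the log2 scale. The 21 ran from -0.34 to 0.14 with a median of -0.06, and 16 of them were below 0. Lamp2, at -0.12, lay within that range. Of 23 other regulators 11 fell and 1 rose. Foxo1, a transcription factor held in the cytoplasm by insulin signalling, fell by 0.92 (SE 0.10, adjusted p = 2.04e-08, edgeR), and Fnip1, a partner of folliculin in lysosomal nutrient sensing, fell by 0.59 (SE 0.07, adjusted p = 1.44e-07, edgeR). Foxo1 averaged 30.0 CPM in refed K556R livers against 58.3 CPM in fasted K556R livers, and 32.7 CPM in refed WT livers against 60.5 CPM in fasted WT livers. Ddit4, an inhibitor of mTORC1 signalling, fell by 1.74 in WT (SE 0.28, adjusted p = 0.000109, edgeR) and by 0.76 in K556R (SE 0.26, adjusted p = 0.043, edgeR), and the difference between genotypes did not pass its own test (log2 0.98, SE 0.38, adjusted p = 1.00, edgeR). The K556R call of Ddit4 was lost on leaving out any 1 of 13 libraries, with a replicate block and in batch 2 alone, at -0.44. Tfe3, a relative of Tfeb, rose by 0.15 (SE 0.06, adjusted p = 0.0466, edgeR), a call lost on leaving out any 1 of 14 libraries, without a filter, with a replicate block and in batch 2 alone, where the value was 0.04.

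**Figure D3:**
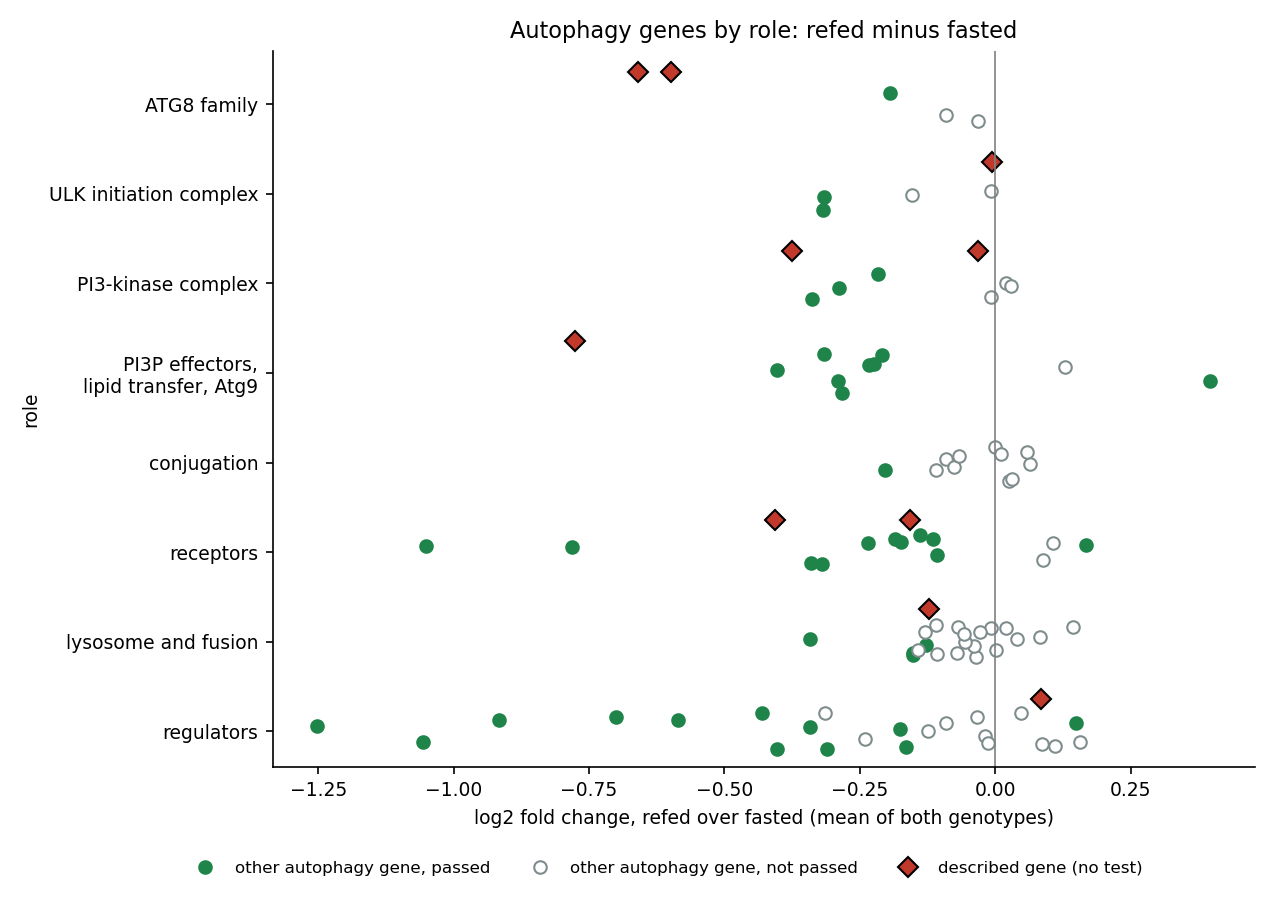
Refed minus fasted log2 fold change (x axis, mean of both genotypes) of the 90 other autophagy genes by role (rows), filled where they passed the edgeR threshold and open where they did not, with diamonds for the 10 genes described first, which carry no test. Filled points lie left of 0 for 39 genes and right of 0 for 3.

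Within genotypes, 32 of the 90 fell and 1 rose in K556R, and 21 fell and 1 rose in WT, where 8.39% of all tested genes fell and 6.97% rose in K556R, and 5.43% fell and 5.25% rose in WT. Of the called genes 21 were shared, 63.6% of those in K556R and 95.5% of those in WT. The difference of the refeeding effects between genotypes passed for 0 of the 90 genes and for 0.0% of all tested genes. In the 10 genes the refeeding difference in K556R minus that in WT was below 0 for 8, with a median of -0.08 on the log2 scale, against 0.00016 over all tested genes, of which 49.9% were below 0. Batch 2 alone gave 7 below 0 with a median of -0.16, and batch 1 alone 5 with a median of -0.0086. The widest value was that of Gabarapl1 at -0.32 (SE 0.10).

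The study also asks what loss of the Prox1 SUMO site does in each feeding state. In refed livers, Gabarapl1 and Map1lc3b were lower in K556R than in WT, by 23.5% and 18.2%, in both batches, and the other 8 genes lay within 0.17 of 0 on the log2 scale. Of the 10 values 8 were below 0 with a median of -0.11, against -0.0013 over all tested genes, of which 50.4% were below 0. The whole-table test called 0 of the 10, and 0.0% of all tested genes, with 1319 genes at an unadjusted p under 0.05. DESeq2 called 44 of 15603 genes, 13 of them lower, which is 0.0833% of all tested genes. Gabarapl1 and Map1lc3b were among those called lower. Since earlier results of these data chose the 10 genes, nothing is read from these calls.

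Gabarapl1 had 155, 167, 173 and 186 CPM in the 4 refed K556R livers of batch 1, against 221, 223 and 249 CPM in the 3 refed WT livers. In batch 2 it had 142, 182, 203 and 227 CPM in refed K556R livers, against 226, 227 and 258 CPM in refed WT livers. The genotypes were separate in batch 1, but the share of all tested genes separate in 1 batch alone was not computed. In batch 2 they overlapped, with the highest K556R liver at 226.6 CPM and the lowest WT liver at 225.9 CPM. The log2 difference was -0.39 (SE 0.07), with -0.44 in batch 1 and -0.33 in batch 2. Earlier results of these data had singled out Gabarapl1 in this comparison, so the value is a description.

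Map1lc3b had 92.8, 107, 111 and 114 CPM in refed K556R livers of batch 1, against 125, 131 and 131 CPM in refed WT livers. In batch 2 it had 84.3, 96.7, 104 and 105 CPM in refed K556R livers, against 111, 121 and 129 CPM in refed WT livers. The genotypes were separate in each batch, as they were, with K556R lower, for 0.224% of all tested genes. The log2 difference was -0.29 (SE 0.07), with -0.28 in batch 1 and -0.30 in batch 2. Wipi1 stood at -0.11 (SE 0.12) with 0.09 in batch 1 and -0.32 in batch 2, so it had no common direction. Atg14 stood at -0.17 (SE 0.11), and at -0.01 (SE 0.09) without replicate 1 of refed WT batch 2.

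Other values moved with this comparison. Fasn was at log2 0.81 (SE 0.32), Acly, which supplies acetyl-CoA, at 0.75 (SE 0.27) and Pnpla3, a lipid droplet protein, at 1.34 (SE 0.52) in refed K556R over refed WT livers, none past the threshold. All 5 tested cholangiocyte markers were above 0 with a median of 0.52, none past the threshold, and the summed level of the 6 markers (Cftr had 0 counts in 5 libraries) ran from 58.6 to 172 CPM in refed K556R livers against 42.6 to 125 CPM in refed WT livers. Of the 8 stellate cell markers 7 were above 0 with a median of 0.23, and of the 8 hepatocyte markers 6 were below 0 with a median of -0.11 and Cyp2e1 lowest at -0.33, none past the threshold. Of the 12 macrophage markers 11 were above 0 with a median of 0.25, none past the threshold, and they summed to 367 to 634 CPM in refed K556R livers against 297 to 519 CPM in refed WT livers. The part of these in the values of Gabarapl1 and Map1lc3b was not tested.

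In fasted livers the genotypes were closer. Gabarapl1 averaged 315 CPM in K556R (SD 37.4, n = 7) and 331 CPM in WT (SD 24.9, n = 8), a log2 difference of -0.07 (SE 0.07), with -0.14 in batch 1 and 0.04 in batch 2. Map1lc3b averaged 166 CPM in K556R (SD 19.5) and 178 CPM in WT (SD 18.1), a difference of -0.11 (SE 0.06). Tfeb had the widest fasted difference, -0.17 (SE 0.10), which was -0.31 in batch 1 and 0.0050 in batch 2. The whole-table test called 0 of the 10, beside 0.103% of all tested genes, and DESeq2 called 0 of the 10 as well. As a mean of both feeding states Gabarapl1 was at -0.23 (SE 0.05) and Map1lc3b at -0.20 (SE 0.05), and these 2 were called lower, beside 0.615% of all genes called lower. Neither value passed in batch 2 alone, and that of Map1lc3b did not pass in batch 1 alone. Both were lost without a filter on low counts, without a batch term and with a replicate block.

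**Figure D4:**
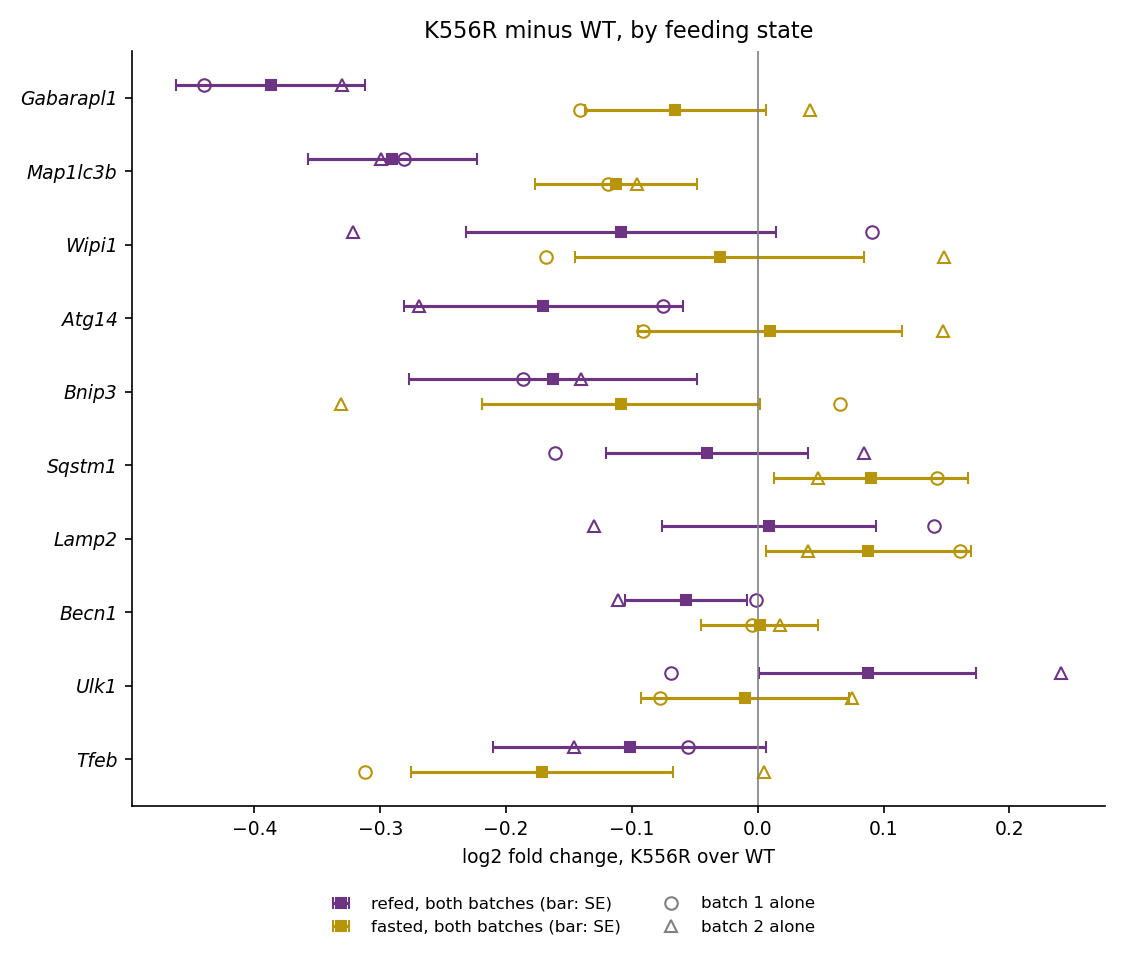
K556R minus WT log2 fold change of each gene (x axis) in refed (purple) and fasted (gold) livers, with squares for both batches together, bars for the standard error, and open circles and triangles for batch 1 and batch 2 alone. Refed Gabarapl1 lies at -0.39 and refed Map1lc3b at -0.29, each with both batches left of 0.

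Among the 90 other autophagy genes, edgeR called 0 for genotype in refed livers (14 at an unadjusted p under 0.05, beside 1319 of 15603 genes, DESeq2 0) and 0 in fasted livers (9 at an unadjusted p under 0.05, beside 1479 of 15603 genes, DESeq2 1, Atg101). As a mean of both states 2 fell, beside 0.615% of all tested genes. Atg101, which stabilises ATG13 in the ULK complex, fell by 0.26 on the log2 scale (SE 0.06, adjusted p = 0.0208, edgeR), and Atg4d, a protease that processes ATG8 proteins, fell by 0.24 (SE 0.06, adjusted p = 0.033, edgeR), a call lost on leaving out any 1 of 12 libraries, without a filter, without a batch term or with a replicate block. Within batch 1 or batch 2 alone neither passed. Atg101 averaged 27.7 CPM in refed K556R livers against 31.7 CPM in refed WT livers, and 26.5 CPM in fasted K556R livers against 33.4 CPM in fasted WT livers. Calcoco1 had -0.19 (SE 0.05, adjusted p = 0.0741, edgeR) and did not pass.

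Batch is a contrast apart from feeding and genotype, and the 10 genes were tested for it. In batch 2 Tfeb rose by 0.34 on the log2 scale relative to batch 1 (SE 0.07, adjusted p = 0.00124, edgeR), Gabarapl1 rose by 0.16 (SE 0.05, adjusted p = 0.0289, edgeR) and Map1lc3b fell by 0.15 (SE 0.05, adjusted p = 0.0178, edgeR). The other 7 did not pass, and 22.1% of all tested genes did. Tfeb averaged 12.0 CPM in batch 2 and 10.04 CPM in batch 1 in refed K556R livers, and 12.3 CPM in batch 2 and 8.45 CPM in batch 1 in fasted K556R livers. Gabarapl1 and Map1lc3b thus went opposite ways between batches, while their refeeding difference had 1 direction in both. With 22.1% of all tested genes passing for batch, nothing particular to the ATG8 family is read from these calls.

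The genes most like Wipi1 across the 29 libraries, after removal of the batch difference, were Scara5 (Pearson r 0.93), Klhl21 (0.93), Dirc2 (0.93), Klf9 (0.92) and Adck5 (0.92), of 10988 genes compared. All 29 libraries share the feeding contrast, and the coefficients come with no test. Klf9, a transcription factor, had a refed minus fasted difference of log2 -1.12 (SE 0.07), and Klhl21 one of -0.93 (SE 0.07). Among the 10 genes, Gabarapl1 ranked 47 in likeness to Wipi1 (r 0.87), Map1lc3b ranked 55 (r 0.86) and Atg14 ranked 216 (r 0.80). Bnip3 had r 0.51 to Wipi1, and Ulk1 and Tfeb had r -0.0082 and 0.0050, so the 10 genes did not vary as one.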

How the data were processed

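Poly-A liver RNA was measured in 29 libraries, and the authors deposited raw counts per gene in 1 table. Tools named without a role, per the submitters' processing notes, are HTSeq, STAR, STAR-Fusion, TopHat, edgeR and DESeq2, with mm10 as the build; the annotation release and the strand setting are not given in the sources used here. Totals ran from 14385218 to 27278251 counts. Gene counts do not tell PCR copies apart. Of 54532 identifiers, 54495 matched GENCODE M21 (GRCm38), which gave symbols, positions and exon lengths.

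filterByExpr in edgeR 4.0.16 (R 4.3.3; minimum count 10, minimum total 15) kept 15603 genes with 99.92% of counts. TMM scaling and a quasi-likelihood model with 4 groups and batch followed (24 residual degrees of freedom). A call is a Benjamini-Hochberg adjusted p under 0.05 over all tested genes. Standard errors come from the F statistic, and log2 CPM used a prior of 2 counts. The procedure was tested on simulated data. In each run a small set of the 15603 genes was changed in 1 contrast, and no gene had a batch or other group difference. The adjusted threshold depends on how many genes change. Recovery in the real contrasts, which called 0 genes for genotype in refed livers and 4001 for refeeding as a mean, can thus be lower or higher. For K556R minus WT it recovered 18% of 1.25-fold changes in each feeding state. Of 1.5-fold changes it recovered 74% in fasted and 44% in refed livers, and of 2-fold changes 78% and 80%. For refeeding it recovered 16% of 1.25-fold changes in WT and 36% in K556R. The interaction was not simulated. A gene without a call may thus still differ by such amounts.

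The 10 genes, the 90 others, the role lists, markers and rules were chosen with earlier results of these data known. Which values chose the 10 is not recorded; Gabarapl1 had been named for its difference between refed K556R and WT livers. By rule up to 4 of the 90 were named per direction and contrast by smallest p, and the 5 genes most like the gene with the widest refeeding change; other names were added after their values were seen. The values of 1 gene are not reported here. Libraries were not paired by repeat number. Libraries that shared a group and batch, a group and repeat number, or a repeat number and batch were compared in pairs. None of these pairs was identical (chi-square per degree of freedom 11.1 or more), and other pairs were not compared. The alternatives were DESeq2 1.42.0 as the test, its size factors, no filter, no batch term, each batch alone, a replicate block and each library left out. Promoters are from RefSeq (GRCm38.p6).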

Additional observations from a re-analysis of the deposited data

Results flagged for a closer look

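In 40 groups of 1 gene and 1 group of livers, 3 had a library far from the rest, where chance gives about 1 in 20. Sqstm1 stood at 490.2 CPM in replicate 3 of fasted WT batch 2, against 330.3 to 385 CPM in the other fasted WT livers of that batch. Without this library the refeeding difference of Sqstm1 as a mean of both genotypes was -0.12 on the log2 scale, no longer past the threshold. Tfeb stood at 13.3 CPM in replicate 3 of fasted WT batch 1, against 8.87 to 10.3 CPM in the others of that batch. Becn1 stood at 57.4 CPM in replicate 1 of refed WT batch 2, against 48.5 and 49.7 CPM in the others, and in this same library Atg14 stood at 25.7 CPM, against 13.6 and 12.9 CPM.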

How the results depend on the processing

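Each of the 10 genes' values was recomputed under every alternative, 2840 values in all: 2830 moved by less than the spread between livers, 10 moved further, all in fits of 1 batch alone, and 0 called values changed sign. That spread is the residual SD of single livers, and leaving out 1 library can hardly shift a group mean so far. For the 29 fits that leave out 1 library the count is therefore a loose check. Among the 90 other autophagy genes, the count called as a mean of both genotypes (42) was 27 in batch 1 alone. In WT the count (22) was 14 without a batch term, 8 in batch 1 alone and 12 in batch 2 alone, and in K556R the count (33) was 15 in batch 1 alone, fits with fewer libraries. For genotype, DESeq2 called 1 in fasted livers, where edgeR called 0. For genotype as a mean of both states (2) the count was 1 without a filter, 6 with DESeq2, 1 without a batch term, and 0 in batch 1 alone and 0 in batch 2 alone. Leaving out each library gave 38 to 43, 16 to 23 in WT, 27 to 34 in K556R, 0 to 0 for genotype in each state and for the interaction, 1 to 4 for genotype as a mean, and 2 to 3 of the 10 genes for batch. Libraries that share a repeat number and batch correlated at -0.365 to 0.214 in their residuals over 40 pairs. Libraries of the same group and batch ran from -0.451 to 0.369 over 39 pairs, so these values neither show nor exclude a pairing. A replicate block gave 40, 19 in WT, 29 in K556R, 1 for genotype as a mean of both states and 0 for genotype in each state and for the interaction.

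Of the 10 genes, Sqstm1 lost its refeeding call on leaving out any 1 of 15 libraries (log2 -0.15 to -0.12) and in K556R any 1 of 20. Bnip3 lost its WT call on leaving out any 1 of 6 libraries (-0.37 to -0.30), 4 fasted and 2 refed WT livers. Gabarapl1 in refed livers gained its genotype call without replicate 4 of refed K556R batch 1 (-0.38) or replicate 2 of batch 2 (-0.43). As a mean of both states, Gabarapl1 lost it without a filter, without a batch term, in batch 2 alone and with the replicate block, and Map1lc3b under these, in batch 1 alone and on leaving out any 1 of 6 libraries (-0.20 to -0.18). The cause was not tested. Depth limited Tfeb and Wipi1 most, with 159 and 188 counts in their lowest libraries.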
